A study of Homo sapiens with 9 samples.

Results

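The genes described here are 44 protein-coding genes of the DNA replication machinery, measured by bulk RNA-seq in U251 cells, a human glioblastoma cell line. They were chosen by name for their role, with earlier results of these data known, and all 44 had a row among the 22295 entries of the table, of which 19932 carry a gene symbol and 2363 are transcribed loci assembled from the reads. They cover origin licensing (10 genes), helicase activation (6 genes), polymerases and primase (7 genes), the sliding clamp and its loader (6 genes), single-strand binding (3 genes), lagging-strand maturation (3 genes), nucleotide supply (5 genes), and chromatin assembly and licensing control (4 genes). The study knocked down PTBP1, an RNA-binding protein that regulates splicing, to push glioblastoma cells towards a neural state. Libraries came from cells 3 days after infection with a control lentivirus whose short hairpin targets luciferase (sh-Luci-3d, here the control), 3 days after infection with a lentivirus against PTBP1 (sh-Ptbp1-3d, the day 3 knockdown), and 7 days after infection with the latter (sh-Ptbp1-7d, the day 7 knockdown), with 3 libraries in each group. By the study's methods, infected cells were moved at 2 days to a neuronal induction medium that contained forskolin and dorsomorphin, so the groups share that medium but not the time spent in it. The knockdown rests on a single hairpin in an infected cell population. No sh-Luci library of day 7 was analysed here, so in every comparison with the day 7 group the knockdown and the additional days of culture cannot be told apart.

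A cell copies its DNA in steps that each have their own proteins. In G1 phase the origin recognition complex, CDC6 and CDT1 load the MCM2 to MCM7 ring, the core of the replicative helicase, onto chromatin. In S phase CDC45 and the GINS complex join that ring and activate it, polymerase alpha with primase starts each strand, polymerases delta and epsilon extend it with the PCNA clamp, and deoxynucleotides are made by enzymes such as ribonucleotide reductase and thymidylate synthase. Many of these genes are transcribed at the G1 to S transition under E2F transcription factors, and cells that stop dividing generally express them at lower levels.

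PTBP1 itself, on chromosome 19 between positions 797075 and 812327 (GRCh38), was examined first as a check of the labels. It was at 111, 112 and 124 FPKM in the control libraries, 66.2, 64.4 and 61.0 FPKM in the day 3 knockdown libraries and 49.7, 50.7 and 51.0 FPKM in the day 7 knockdown libraries, where FPKM, the unit of all levels below, is a fragment number divided by transcript length and by the mapped total of its library. The groups did not overlap, and PTBP1 fell between the control and the day 3 knockdown (log2 fold change -0.85, standard error 0.0725, adjusted p = 0.00314). Of 8 glioma and astroglial markers, 5 had a group mean of at least 1 FPKM in every group and OLIG2 was under 0.1 FPKM in all libraries. The summed level of these markers was 4457 to 4584 FPKM in the control, 4568 to 4877 FPKM in the day 3 knockdown and 1386 to 1509 FPKM in the day 7 knockdown. Of the 8 neuronal markers, 3 had a mean of at least 1 FPKM in the control and in the day 7 knockdown and 4 in the day 3 knockdown, and their summed level was 265 to 316 FPKM, 159 to 166 FPKM and 335 to 357 FPKM in these groups. Such sums follow the most abundant markers. From the day 3 to the day 7 knockdown (limma, FDR of 0.01), 2 of 7 glioma markers tested were called lower and 1 higher. Of 7 neuronal markers tested, 1 was called lower and 1 higher. Over all genes 15.5% were called lower and 20.3% higher. The median log2 fold changes were -0.35 for the glioma and -0.05 for the neuronal markers. The neuronal markers STMN2 and DCX were at 11.5 and 2.14 FPKM in day 3 knockdown replicate 3 and under 0.1 FPKM in the other 8 libraries, so that library stands apart. It also held the lowest of the 3 values of its group for 29 of the 44 replication genes. In comparisons that use the day 3 knockdown, the numbers of members called and their medians are given without it too. Levels, ratios, counts of members without overlap and counts past 2-fold are given with it only, as are the other gene lists. In the control, replicate 3 was at one end of the group for most members, the highest for 20 and the lowest for 19 of the 44 genes. The 8 blood and immune markers summed to at most 1.18 FPKM in any library. The part of these marker shifts in the results that follow was not tested.

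All 44 replication genes were expressed in all 9 libraries. Levels are given in the order control, day 3 knockdown and day 7 knockdown, and pairs of levels in the order day 3 and day 7 knockdown, unless groups are named. In the day 3 knockdown the highest means were those of TYMS at 145 ± 6.98 FPKM (SD, n = 3), TK1 at 124 ± 5.64 FPKM, MCM7 at 83.1 ± 2.63 FPKM and PCNA at 64.5 ± 0.976 FPKM, and the lowest was that of POLE2 at 1.98 ± 0.435 FPKM. TYMS makes thymidylate, TK1 salvages thymidine, and POLE2 is a subunit of polymerase epsilon. In the day 7 knockdown the order at the top was PCNA at 50.4 ± 4.16 FPKM, MCM7 at 50.4 ± 1.26 FPKM and TYMS at 50.1 ± 1.28 FPKM, which lay within each other's spread, and TK1 stood behind RPA2. The 44 genes summed to 1099, 1084 and 1192 FPKM in the control libraries, 1177, 1166 and 1105 FPKM in the day 3 knockdown libraries, and 657, 676 and 669 FPKM in the day 7 knockdown libraries. The sums of the day 3 groups overlapped each other and both lay far above those of day 7, while the sum over all entries ran from 367412 to 404922 FPKM. In bulk RNA, fewer cells in S phase and less RNA of these genes in each cell cannot be told apart. The coefficient of variation within a group had a median over the 44 genes of 9.71% in the control, 5.26% in the day 3 knockdown and 5.54% in the day 7 knockdown.

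**Figure D1:**
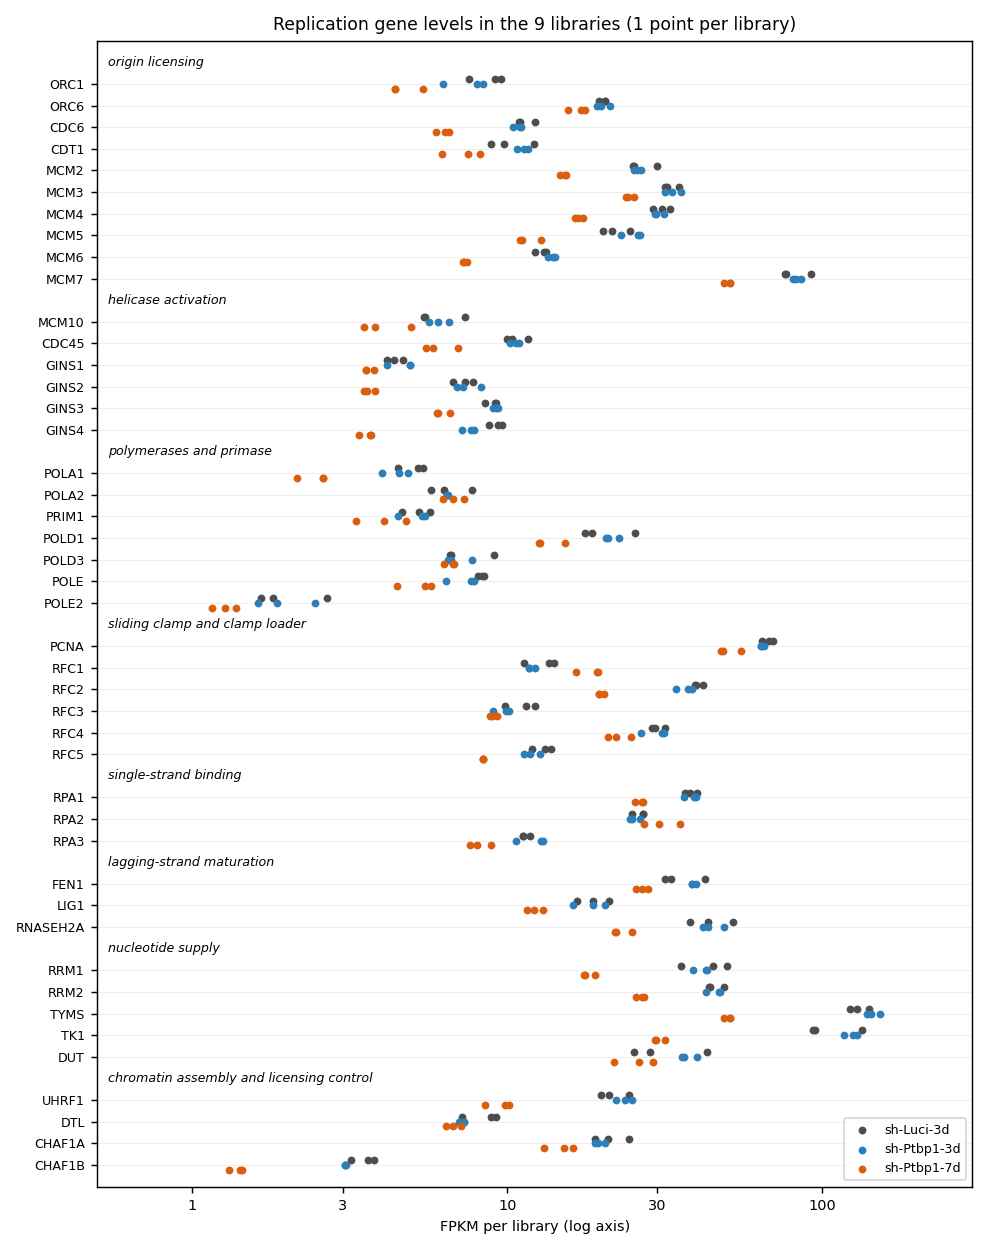
Level of each replication gene in every library, in FPKM on a log axis, with genes in rows grouped by role and 1 point per library coloured by group. The day 7 knockdown points of most genes lie to the left of both day 3 groups. Those of RFC1 and, narrowly, RPA2 lie to the right of them, and those of POLA2, POLD3, PRIM1, RFC3 and DTL overlap with the day 3 knockdown.

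At day 3 no replication gene passed the test for a difference between knockdown and control. Differences were tested with limma on log2(FPKM + 0.1) over 15551 genes, with p-values adjusted by Benjamini-Hochberg over all of them. At an FDR of 0.05, limma called 0 of the 44 members in either direction in the day 3 knockdown against the control, where it called 0.0322% of all genes tested. The study, which does not name its test, reported many more genes for these groups at this FDR with a fold above 2. The small number of calls holds for the test used here with all 9 libraries, and it rose without control replicate 3, as given below. Unadjusted p-values were under 0.05 for 1 of the 44 members and for 1126 of all 15551 genes. The median log2 fold change of the members was -0.02, beside 0.01 over all genes, and single members ran from -0.29 to 0.26. The 3 members with the lowest p were GINS4, a subunit of the GINS complex, DTL, which directs the destruction of CDT1 in S phase, and RFC3, a subunit of the clamp loader. GINS4 was at 9.65, 9.36 and 8.76 FPKM in the control libraries and at 7.67, 7.83 and 7.17 FPKM in the day 3 knockdown libraries, 2 sets that did not overlap (log2 fold change -0.29, standard error 0.0928, adjusted p = 0.564). DTL was at 8.88, 9.21 and 7.20 FPKM in the control against 7.29, 7.28 and 7.05 FPKM (log2 fold change -0.22, standard error 0.108, adjusted p = 0.723), and RFC3 at 11.5, 12.2 and 9.84 FPKM against 9.89, 10.2 and 9.05 FPKM (log2 fold change -0.20, standard error 0.0997, adjusted p = 0.725). For DTL and RFC3 the control replicate 3 value fell among the day 3 knockdown values.

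This negative result depended on that 1 control library, and so did the number of calls over all genes. Without control replicate 3, limma called 4 members, where it called 986 of all 15551 genes (6.34%), against 5 with every library. The 4 calls thus came with a shift over all genes and are no result about the members in particular. Whether members were called more often than other genes was not tested. TK1 was higher by 0.39 on the log2 scale (adjusted p = 0.0105), FEN1, the flap endonuclease of Okazaki fragments, by 0.27 (adjusted p = 0.0363), and DUT, the dUTPase that keeps uracil out of DNA, by 0.48 (adjusted p = 0.0411). DTL was lower, at a log2 fold change of -0.32 (adjusted p = 0.0487). DUT shows the spread behind this, at 25.2, 28.4 and 43.0 FPKM in the control libraries and 40.2, 35.9 and 36.5 FPKM in the day 3 knockdown libraries. Under each other left-out library the count was 0, also without day 3 knockdown replicate 3, where the members' median was -0.01.

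Between day 3 and day 7 of the knockdown most of the replication machinery fell. At an FDR of 0.01, 32 of the 44 members fell in the day 7 knockdown against the day 3 knockdown, where 15.5% of all genes tested were called lower, and 1 member, RFC1, rose, where 20.3% were called higher. The fall passed 2-fold for 8 members (TK1, TYMS, UHRF1, RRM1, MCM5, CHAF1B, GINS4 and GINS2), against 5.9% of all genes, and for 5 with a pseudocount of 1 in place of 0.1. All day 7 libraries lay below all day 3 knockdown libraries for 37 of the 44 members and for 27% of all genes. The median log2 fold change of the members was -0.58, beside 0.09 over all genes. It was -0.59 without day 3 knockdown replicate 3, when 27 members were called lower.

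**Figure D2:**
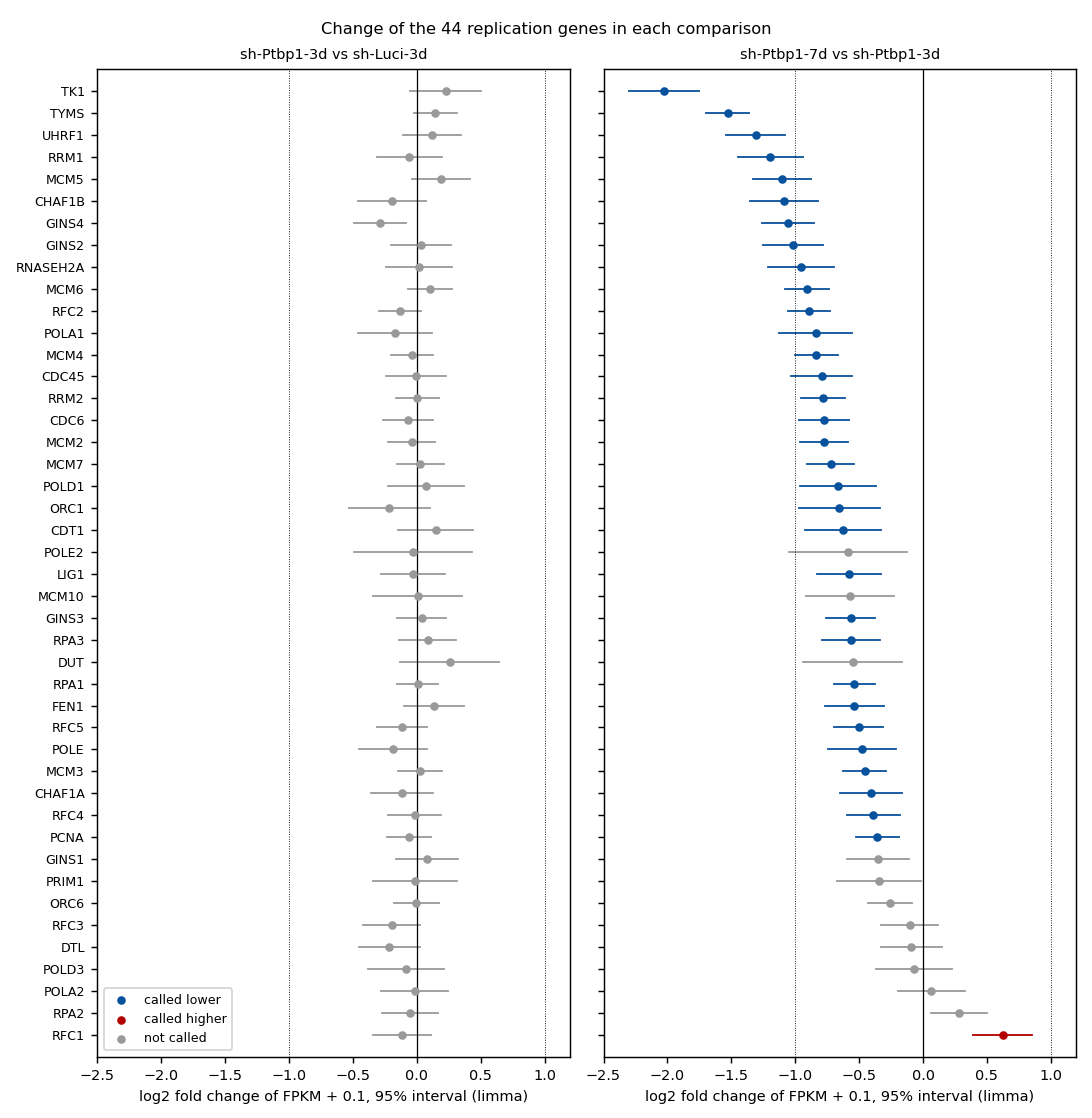
Log2 fold change of FPKM + 0.1 with its 95% interval from limma for each of the 44 genes, on the left for the day 3 knockdown against the control and on the right for the day 7 knockdown against the day 3 knockdown, with genes in the same order and dotted lines at 2-fold. On the left all points are grey (not called) and lie within 0.29 of 0. On the right 32 are blue (called lower), 11 are grey (not called) and RFC1 alone is red (called higher), and TK1 reaches -2.03.

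Across 21 alternative settings, 25 of the 32 members that fell were called in each, as was RFC1. The other 7 lost the call in at least 1 setting. Their highest adjusted p-values came with a library left out, which for ORC1 was 0.0164, for POLD1 0.0105, for POLE 0.0333 and for CHAF1A 0.039 without day 3 knockdown replicate 1, for CDT1 0.016 without day 3 knockdown replicate 3, and for PCNA 0.0169 and RFC4 0.0284 without day 7 knockdown replicate 2. Of the members without a call, MCM10 gained one in 8 of the 21 settings, ORC6 in 3, and GINS1, RPA2 and DUT in 2 each. The direction was the same in every setting for 41 of the 44 members.

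The promoters of members that fell and of members that did not were searched for the letters that E2F factors bind. RefSeq promoters (GRCh38.p14, 250 bases before to 50 after the start) were on hand for 38 of the 44 genes, the exceptions being MCM4, MCM5, GINS4, POLD3, RPA2 and RPA3. The letters searched, on both strands and with overlaps counted, were TTTCCCGC, TTTCGCGC, TTTGCCGC and TTTGGCGC. They were present in 19 of the 38 promoters (50%), beside 5.35% of 10784 promoters of genes averaging 0.1 FPKM or more and 3.31% of all 35116 promoters. For the members, with 51 promoters listed, and for the set of 10784, only the first promoter listed for a gene was used. The set of 35116 kept every promoter, so its share is not on the same basis. For 17 of those 19 genes a match began within 100 bases before the start or after it. A match was found in 14 of the 28 promoters of members that fell and in 5 of the 10 others. The CCAAT box, CCAAT, was in 60.5% of the members' promoters and in 37% of those of genes above 0.1 FPKM. The CHR letters TTTGAA, known from genes of mitosis, were in 1 of 38 member promoters (2.63%) and 12 of 18 promoters of the mitosis genes described further on, which held the E2F letters in 2 of 18. These shares are descriptions of letters and were not tested.

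The following are the promoters of the 4 members with the largest falls that held an E2F match (TYMS, UHRF1, GINS2, MCM6), then of DTL and POLA2, which held one and were not called. They are shown to let the matches be seen in place, 5′ to 3′ on the gene's strand, from 200 bases before the start to 30 bases into the transcript, with the E2F letters in capitals. They lie at chr18:657453-657682 (plus strand) for TYMS, chr19:4909301-4909530 (plus strand) for UHRF1, chr16:85688925-85689154 (minus strand) for GINS2, chr2:135876414-135876643 (minus strand) for MCM6, chr1:212035548-212035777 (plus strand) for DTL and chr11:65261762-65261991 (plus strand) for POLA2.
TYMS: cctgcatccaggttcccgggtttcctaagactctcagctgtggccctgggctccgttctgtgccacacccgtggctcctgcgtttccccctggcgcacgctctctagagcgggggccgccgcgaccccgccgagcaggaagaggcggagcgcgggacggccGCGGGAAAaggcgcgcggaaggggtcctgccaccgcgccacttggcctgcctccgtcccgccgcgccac
UHRF1: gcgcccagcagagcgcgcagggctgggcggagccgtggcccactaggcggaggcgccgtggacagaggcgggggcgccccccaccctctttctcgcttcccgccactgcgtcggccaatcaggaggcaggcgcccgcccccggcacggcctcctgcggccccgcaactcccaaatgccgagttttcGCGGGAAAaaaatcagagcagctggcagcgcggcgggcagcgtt
GINS2: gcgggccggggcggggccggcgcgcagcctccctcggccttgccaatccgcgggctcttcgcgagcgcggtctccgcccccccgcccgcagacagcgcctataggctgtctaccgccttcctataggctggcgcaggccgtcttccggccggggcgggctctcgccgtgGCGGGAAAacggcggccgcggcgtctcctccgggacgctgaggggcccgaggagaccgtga
MCM6: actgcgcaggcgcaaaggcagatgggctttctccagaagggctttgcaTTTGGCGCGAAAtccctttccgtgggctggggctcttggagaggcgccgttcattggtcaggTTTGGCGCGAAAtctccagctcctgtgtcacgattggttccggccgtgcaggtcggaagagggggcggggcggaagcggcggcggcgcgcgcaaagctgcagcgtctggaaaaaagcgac
DTL: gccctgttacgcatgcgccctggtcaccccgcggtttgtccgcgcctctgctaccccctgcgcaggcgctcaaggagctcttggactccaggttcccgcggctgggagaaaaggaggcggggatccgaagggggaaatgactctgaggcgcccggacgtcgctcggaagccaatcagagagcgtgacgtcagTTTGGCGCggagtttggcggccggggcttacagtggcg
POLA2: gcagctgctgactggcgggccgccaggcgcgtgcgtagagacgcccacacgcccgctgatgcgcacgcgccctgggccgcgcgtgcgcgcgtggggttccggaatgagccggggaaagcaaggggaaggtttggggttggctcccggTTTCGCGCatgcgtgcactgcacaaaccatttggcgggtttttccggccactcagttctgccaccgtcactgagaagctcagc
TYMS, UHRF1 and GINS2 each hold GCGGGAAA, the reverse complement of TTTCCCGC, which begins 39, 14 and 31 bases before the start. MCM6 holds TTTGGCGCGAAA at 2 places, each of which counts as 2 overlapping matches, with the first of each pair 152 and 90 bases before the start. DTL holds TTTGGCGC in the last 8 bases before its start, and POLA2 holds TTTCGCGC 53 bases before its start. TK1, the member with the largest fall, and RFC1, which rose, held none of these letters in the window searched.

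The enzymes that supply deoxynucleotides had the lowest median of the 8 roles, with 4 of 5 called lower and a median log2 fold change of -1.19. TK1, on chromosome 17 between positions 78174075 and 78187233, was at 94.7, 93.5 and 134 FPKM in the control libraries, 129, 125 and 118 FPKM in the day 3 knockdown libraries and 29.5, 31.6 and 29.7 FPKM in the day 7 knockdown libraries. The day 7 values lay far below all 6 day 3 values, at 24.5% of the day 3 knockdown level (log2 fold change -2.03, standard error 0.125, adjusted p = 4.3e-07). TYMS, on chromosome 18 between positions 657604 and 673578, was at 129, 123 and 141 FPKM, 152, 143 and 139 FPKM and 50.8, 50.9 and 48.6 FPKM in the same order of groups. Its day 7 libraries were close together and below all others (log2 fold change -1.53, standard error 0.0757, adjusted p = 9.64e-08). TYMS shares 39.2% of its exonic bases with ENOSF1 on the opposite strand, and the strandedness of the libraries is not given in the sources used here, but ENOSF1 was at no more than 2.14 FPKM in any library. RRM1, the large subunit of ribonucleotide reductase, on chromosome 11 between positions 4094707 and 4138876, was at 49.96, 45.2 and 35.7 FPKM in the control, 43.0, 42.7 and 38.8 FPKM in the day 3 knockdown and 17.7, 19.1 and 17.5 FPKM in the day 7 knockdown (log2 fold change -1.19, standard error 0.115, adjusted p = 1.13e-05). The groups of day 3 overlapped each other and not those of day 7. RRM2, its small subunit, fell by 0.78 on the log2 scale (adjusted p = 1.26e-05), and the ratio of RRM2 to RRM1 in FPKM went from 1.10 ± 0.0105 (SD, n = 3) in the day 3 knockdown to 1.47 ± 0.0471 in the day 7 knockdown. DUT, at 29.1, 26.2 and 21.9 FPKM on day 7 and with libraries below those of the day 3 knockdown, was not called (log2 fold change -0.55, standard error 0.175, adjusted p = 0.0229). RRM2 shares 20.2% of its exonic bases with a gene on the same strand that has no row in the table, so its level and ratio are uncertain to that extent. Pseudogenes named after DUT (8), RRM2 (3) and TYMS (2) exist in the annotation, and how reads that match both were assigned is not given in the sources used here.

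**Figure D3:**
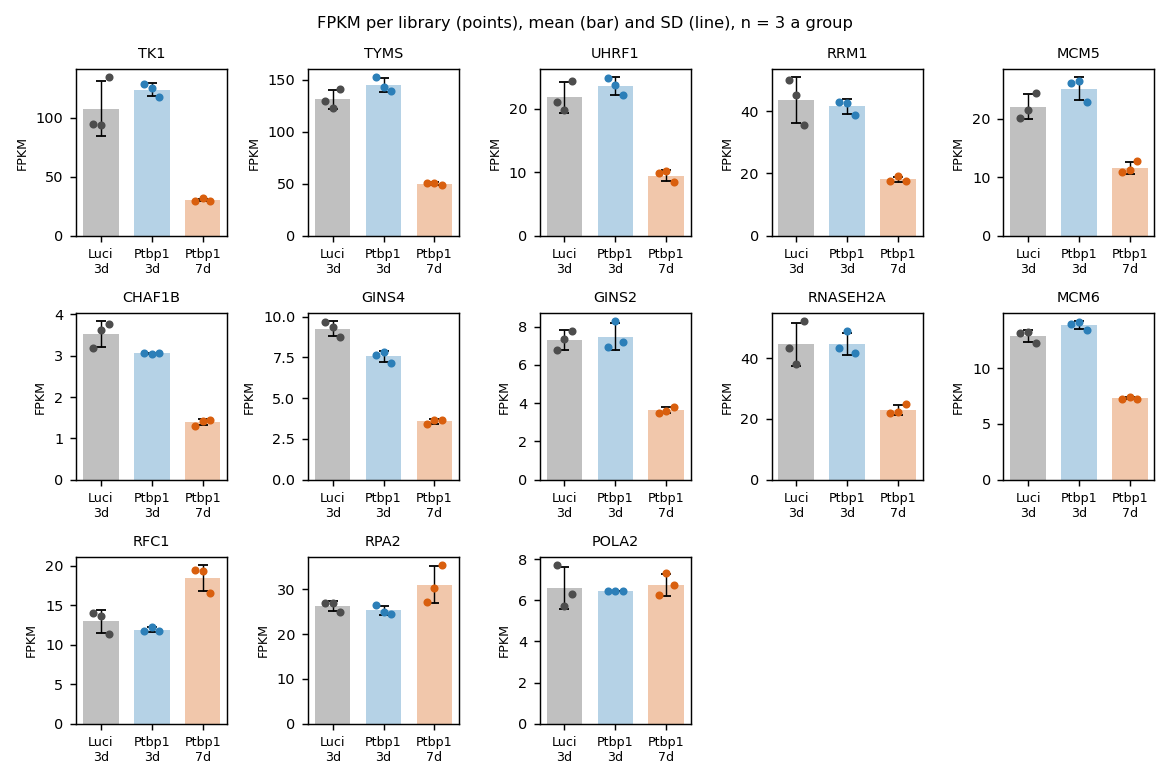
FPKM in each library (points), with the group mean (bar, from 0) and SD (line), n = 3, for the 10 genes with the largest changes from the day 3 knockdown to the day 7 knockdown and for RFC1, RPA2 and POLA2, which were not lower at day 7. Each panel has its own axis. The day 7 points of the 10 falling genes lie below every day 3 point, and those of RFC1 lie above them.

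Of the 10 licensing genes, 9 fell, with a median log2 fold change of -0.75. The 6 subunits of the MCM ring all fell, from -0.46 for MCM3 to -1.11 for MCM5, and their geometric mean level was 29.3 ± 1.32 FPKM (SD, n = 3) in the control, 30.2 ± 1.09 FPKM in the day 3 knockdown and 17.3 ± 0.328 FPKM in the day 7 knockdown. MCM5, on chromosome 22 between positions 35400063 and 35425430, was at 20.2, 21.5 and 24.5 FPKM, 26.0, 26.5 and 22.9 FPKM and 10.95, 11.2 and 12.8 FPKM in the control, the day 3 knockdown and the day 7 knockdown (log2 fold change -1.11, standard error 0.102, adjusted p = 8.28e-06). Every day 7 library was below every day 3 library. MCM6, on chromosome 2 between positions 135839626 and 135876426, was the least abundant subunit in each group, at 13.1, 13.3 and 12.3 FPKM, 13.9, 14.2 and 13.4 FPKM and 7.25, 7.43 and 7.27 FPKM (log2 fold change -0.91, standard error 0.0778, adjusted p = 4.75e-06). MCM7 was the most abundant, and its ratio to MCM6 was 6.38 ± 0.975 in the control, 6.002 ± 0.169 in the day 3 knockdown and 6.88 ± 0.134 in the day 7 knockdown. MCM2 shares 22.7% of its exonic bases with an antisense transcript that has no row in the table. CDC6, which recruits the MCM ring, was at 11.1, 10.98 and 10.4 FPKM in the day 3 knockdown and 5.93, 6.55 and 6.37 FPKM in the day 7 knockdown, and CDT1, its partner in loading, at 10.7, 11.3 and 11.7 FPKM and 6.23, 7.48 and 8.18 FPKM. Both fell, CDC6 by 0.78 and CDT1 by 0.63 on the log2 scale (adjusted p = 3.78e-05 and 0.00273). ORC1, the ATPase of the origin recognition complex, fell by 0.66 (adjusted p = 0.00307). ORC6, its smallest subunit, was the licensing gene that was not called, at 19.8, 21.2 and 19.3 FPKM and 17.1, 17.6 and 15.6 FPKM (log2 fold change -0.26, standard error 0.0788, adjusted p = 0.0192).

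Helicase activation genes fell in 4 of 6 cases, with a median log2 fold change of -0.68. GINS4 was at 3.39, 3.67 and 3.69 FPKM in the day 7 knockdown, under all 6 day 3 values given above (log2 fold change -1.06, standard error 0.0928, adjusted p = 5.68e-06). GINS2, on chromosome 16 between positions 85676198 and 85690073, was at 6.75, 7.36 and 7.78 FPKM in the control, 6.91, 8.28 and 7.22 FPKM in the day 3 knockdown and 3.50, 3.58 and 3.79 FPKM in the day 7 knockdown (log2 fold change -1.02, standard error 0.106, adjusted p = 1.92e-05). Its day 7 libraries were below all of the others. The 4 GINS subunits form a complex, and their changes ran from -0.35 for GINS1, which was not called (adjusted p = 0.0220), through -0.57 for GINS3, to -1.06 for GINS4. GINS1 was the lowest of the 4 in both day 3 groups, at 4.67 ± 0.445 FPKM (SD, n = 3) in the day 3 knockdown, and in the day 7 knockdown GINS1, GINS2 and GINS4 lay together at 3.63 ± 0.124, 3.63 ± 0.149 and 3.58 ± 0.166 FPKM with GINS3 at 6.19 ± 0.331 FPKM. CDC45, which joins GINS on the helicase, was at 10.9, 10.2 and 10.6 FPKM and 5.53, 5.80 and 6.97 FPKM and fell by 0.79 (adjusted p = 1.36e-04). MCM10, a helicase activator, was at 5.64, 6.02 and 6.53 FPKM and 3.52, 4.94 and 3.797 FPKM and just missed the threshold (log2 fold change -0.57, standard error 0.157, adjusted p = 0.0112). GINS4 shares 21.2% of its exonic bases with an antisense transcript that has no row in the table.

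Of the 7 genes of polymerases and primase, 3 fell (POLA1, POLD1 and POLE, the catalytic subunits of polymerases alpha, delta and epsilon) and 4 were not called (POLA2, POLD3, POLE2 and PRIM1, accessory subunits and the primase catalytic subunit), while 5 of the 7 had an unadjusted p under 0.05. The difference between the called subunits and the others was not tested. POLE was at 7.87, 7.65 and 6.39 FPKM in the day 3 knockdown and 5.47, 5.72 and 4.46 FPKM in the day 7 knockdown (log2 fold change -0.48, adjusted p = 0.00689) and was called in 11 of the 21 settings. POLE2 was at 1.62, 1.85 and 2.46 FPKM and 1.27, 1.15 and 1.38 FPKM, also without overlap, and its log2 fold change of -0.59 was not called (adjusted p = 0.0376). POLA1 was at 5.22, 5.41 and 4.501 FPKM in the control, 4.86, 4.54 and 3.999 FPKM in the day 3 knockdown and 2.60, 2.61 and 2.15 FPKM in the day 7 knockdown, and fell (log2 fold change -0.84, standard error 0.130, adjusted p = 3.4e-04). POLA2, on chromosome 11 between positions 65261762 and 65305589, the subunit that binds POLA1 in the same enzyme, was at 7.71, 5.74 and 6.30 FPKM, 6.47, 6.44 and 6.43 FPKM and 6.24, 7.31 and 6.72 FPKM. Its groups overlapped and its change from the day 3 knockdown to the day 7 knockdown was not called (log2 fold change 0.06, standard error 0.119, adjusted p = 0.682), with an interval of -0.20 to 0.33 and a sign that turned to -0.0223 under median-ratio scaling and to -0.0566 under quantile normalization. The ratio of POLA2 to POLA1 in FPKM was 1.31 ± 0.221 (SD, n = 3), 1.45 ± 0.141 and 2.78 ± 0.360 in the 3 groups. POLA2 shares 35.1% of its exonic bases with a readthrough gene that has no row in the table, so its level is uncertain to that extent. PRIM1 shares 1.35% with NACA on the same strand, which was at 123 to 227 FPKM, and the part of this overlap in the PRIM1 values was not tested. POLD3 had an interval of -0.37 to 0.23 and PRIM1 of -0.67 to -0.01, and the POLA1 estimate of -0.84 lay outside both. The interval of POLA1 itself, -1.13 to -0.55, overlapped that of PRIM1 and not that of POLD3. The interval of POLE2, the least abundant member, was -1.05 to -0.12 and included the POLA1 estimate.

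The sliding clamp and its loader held the 1 member of the 44 that rose. PCNA, the clamp, was at 69.9, 68.0 and 64.3 FPKM in the control, 63.8, 65.6 and 63.9 FPKM in the day 3 knockdown and 47.6, 48.5 and 55.2 FPKM in the day 7 knockdown, and fell by 0.36 (adjusted p = 0.00297), the smallest fall of the 32. The annotation holds 3 pseudogenes named after PCNA. RFC1, the large subunit of the loader, on chromosome 4 between positions 39287456 and 39366375, was at 14.03, 13.6 and 11.3 FPKM, 11.7, 12.3 and 11.7 FPKM and 19.4, 19.3 and 16.5 FPKM in the same groups. All day 7 values were above all day 3 values, and RFC1 rose (log2 fold change 0.62, standard error 0.104, adjusted p = 5.61e-04). RFC2, a small subunit, was at 39.7, 39.5 and 41.9 FPKM, 38.6, 37.6 and 34.4 FPKM and 19.5, 19.6 and 20.3 FPKM and fell (log2 fold change -0.89, standard error 0.0732, adjusted p = 3.6e-06), so that the ratio of RFC1 to RFC2 in FPKM was 0.322 ± 0.0457 (SD, n = 3) in the control, 0.323 ± 0.0190 in the day 3 knockdown and 0.930 ± 0.102 in the day 7 knockdown. RFC5 fell by 0.50 and RFC4 by 0.39. RFC5 shares 5.72% of its exonic bases with WSB2 on the opposite strand. WSB2 was at 53.1, 52.7 and 51.6 FPKM in the day 3 knockdown and 18.5, 20.6 and 21.5 FPKM in the day 7 knockdown. RFC4 shares 0.7% with EIF4A2 on the opposite strand, at 114, 137 and 129 FPKM and 381, 397 and 390 FPKM. With strandedness unknown, the part of these overlaps in the changes of RFC5 and RFC4 was not tested. RFC3 was at 8.93, 9.27 and 8.82 FPKM at day 7, overlapping with the day 3 knockdown, and was not called (log2 fold change -0.11, standard error 0.0997, adjusted p = 0.408).

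Of the 3 subunits of replication protein A, which coats single-stranded DNA, RPA1 and RPA3 fell, by 0.54 and 0.56 (adjusted p = 1.31e-04 and 9.81e-04). RPA2, the middle subunit, on chromosome 1 between positions 27891524 and 27914746, was at 27.0, 27.0 and 24.9 FPKM in the control, 26.4, 24.9 and 24.6 FPKM in the day 3 knockdown and 27.2, 30.3 and 35.4 FPKM in the day 7 knockdown. Its day 7 values were all above the day 3 values, by little in replicate 1, and the difference missed the threshold (log2 fold change 0.28, standard error 0.0979, adjusted p = 0.0333). It passed with values rescaled to TPM, which sets the same total in every library (0.38, adjusted p = 0.00611) and with a correction for GC content and length (0.31, adjusted p = 0.00806). The ratio of RPA2 to RPA1 in FPKM was 0.688 ± 0.0202 (SD, n = 3), 0.660 ± 0.0276 and 1.18 ± 0.194 in the 3 groups.

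All 3 genes of lagging-strand maturation fell. RNASEH2A, the catalytic subunit of the RNase H2 that removes ribonucleotides from DNA, on chromosome 19 between positions 12806556 and 12815201, was at 43.4, 38.01 and 52.1 FPKM in the control, 43.5, 48.8 and 41.7 FPKM in the day 3 knockdown and 21.95, 22.1 and 24.9 FPKM in the day 7 knockdown (log2 fold change -0.95, standard error 0.116, adjusted p = 6.2e-05). The day 7 libraries were below all day 3 libraries. It shares 30.8% of its exonic bases with THSD8 on the same strand, which was at no more than 0.414 FPKM. FEN1 fell by 0.54 and LIG1, the ligase that seals Okazaki fragments, by 0.58 (adjusted p = 0.00162 and 0.00156).

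Among the genes of chromatin assembly and licensing control, 3 of 4 fell. UHRF1, which brings the maintenance methyltransferase to newly replicated DNA, on chromosome 19 between positions 4903080 and 4962154, was at 21.0, 19.8 and 24.4 FPKM in the control, 24.9, 23.7 and 22.1 FPKM in the day 3 knockdown and 9.83, 10.1 and 8.48 FPKM in the day 7 knockdown (log2 fold change -1.31, standard error 0.104, adjusted p = 2.78e-06). CHAF1B, a subunit of the histone chaperone CAF-1, on chromosome 21 between positions 36385378 and 36419015, was at 3.19, 3.62 and 3.78 FPKM, 3.06, 3.05 and 3.07 FPKM and 1.31, 1.41 and 1.44 FPKM (log2 fold change -1.09, standard error 0.120, adjusted p = 3.09e-05). For both genes the day 7 values lay below all day 3 values. CHAF1A, the large subunit of CAF-1, fell by 0.41 (adjusted p = 0.00975). DTL, on chromosome 1 between positions 212035553 and 212107400, was at 6.40, 7.13 and 6.74 FPKM in the day 7 knockdown and overlapped with the day 3 knockdown (log2 fold change -0.09, standard error 0.108, adjusted p = 0.505). Its interval was -0.33 to 0.15, and rescaling to TPM turned its value to 0.0074.

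Paralogs and partners outside the list were set beside the members. TK2, the mitochondrial thymidine kinase, rose, from 12.1, 10.2 and 9.85 FPKM to 15.03, 14.2 and 13.7 FPKM (log2 fold change 0.41, standard error 0.0955, adjusted p = 0.00435). Its ratio to TK1 in FPKM went from 0.0866 ± 0.00660 (SD, n = 3) to 0.472 ± 0.0323, mostly through the fall of TK1 (log2 fold change -2.03). RRM2B, the p53-induced small subunit of ribonucleotide reductase, was at 10.2, 11.3 and 10.7 FPKM and 11.2, 10.9 and 8.62 FPKM and was not called (log2 fold change -0.07, standard error 0.134, adjusted p = 0.689). UHRF2, the paralog of UHRF1, was at 14.95, 17.1 and 14.2 FPKM and 14.7, 15.4 and 12.3 FPKM and was not called either (log2 fold change -0.13, standard error 0.116, adjusted p = 0.387), and its ratio to UHRF1 went from 0.654 ± 0.0616 to 1.49 ± 0.0380. The origin recognition subunits ORC2, ORC3, ORC4 and ORC5 were not called, with log2 fold changes of 0.00, 0.49, 0.40 and 0.11 beside -0.66 for ORC1. For ORC3 (adjusted p = 0.0361) and ORC4 (adjusted p = 0.0101) every day 7 library was above every library of the day 3 knockdown. GMNN, the geminin that holds CDT1 inactive, fell by 0.77 (adjusted p = 6.5e-05), and its ratio to CDT1 was 2.34 ± 0.468 in the control, 2.10 ± 0.0609 in the day 3 knockdown and 1.90 ± 0.0908 in the day 7 knockdown.

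**Figure D4:**
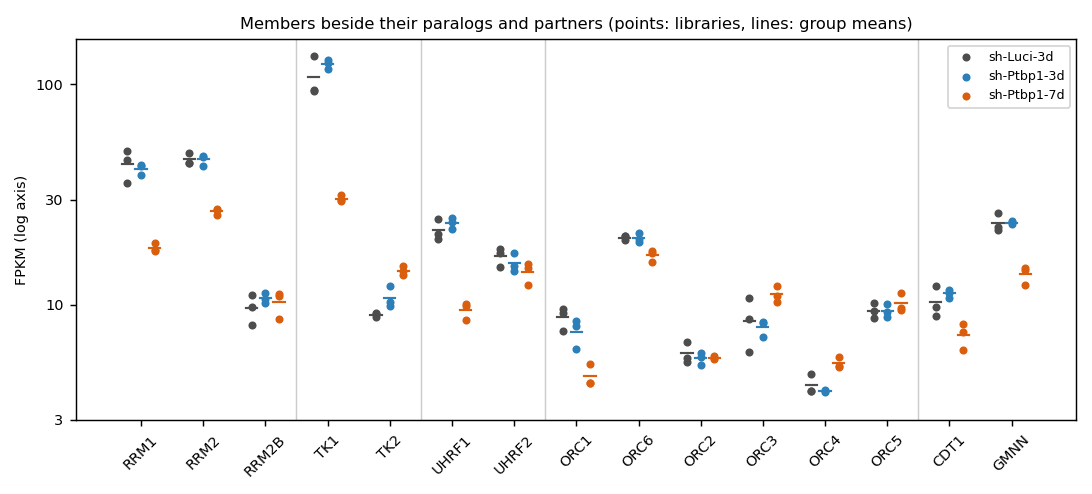
FPKM on a log axis of members beside their paralogs and partners, with 1 point per library and a line at each group mean. RRM1, RRM2, TK1, UHRF1, ORC1, CDT1 and GMNN are lower in the day 7 knockdown, while TK2 is higher, the day 7 points of RRM2B, UHRF2, ORC2 and ORC5 overlap with those of the day 3 knockdown, and those of ORC3 and ORC4 lie above them.

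Of 43 other replication genes, outside the 44, 15 were called lower, beside 15.5% of all genes, and 2 higher, beside 20.3%, in the day 7 knockdown against the day 3 knockdown, with a median log2 fold change of -0.34. Among those that fell were GMNN, the licensing inhibitor geminin (-0.77), DONSON, a fork protection factor (-0.74), POLE4, a small subunit of polymerase epsilon (-1.52), DSCC1 of the alternative clamp loader (-0.48), and HELLS, a chromatin remodeller (-1.30). The 2 that rose were SAMHD1, which degrades deoxynucleotides (1.04, adjusted p = 2.55e-05), and the histone chaperone NASP (0.44, adjusted p = 0.00284). SAMHD1 was at 52.8, 55.1 and 64.4 FPKM in the day 3 knockdown and 119.7, 121 and 112 FPKM in the day 7 knockdown. Among 11 genes of mitochondrial replication 0 fell at this FDR and 2 rose by limma (TK2 and TWNK, the mitochondrial helicase), with a median of -0.01, and 3 of the 11 had an unadjusted p under 0.05.

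Of 23 genes of the E2F and RB network, which regulates the G1 to S transition, 6 fell and 4 rose, beside 15.5% and 20.3% of all genes. The list is small, and its departure from these shares was not tested. Those that fell included the activators E2F1 (-0.73) and E2F2 (-0.86), the repressor E2F8 (-0.74), and cyclin A2, CCNA2 (-1.23), which drives S phase. The 4 that rose included E2F5, a repressor that acts with p130 (1.38, adjusted p = 2.06e-06), and LIN52 of the MuvB core (0.76). Of 9 genes of the G1 cyclins and CDK inhibitors that could be tested, CDKN1A (1.13), CDKN1B (0.62), CCND1 (0.83) and CCND3 (0.96) rose and CDKN2D (-0.69) fell. These 4 and 1 of 9 stand beside 20.3% and 15.5% of all genes, also without a test. Of 9 genes of the S phase checkpoint, CHEK1 (-0.86) and HUS1 fell and RAD9A (1.08) and ATRIP rose, counts that are close to those shares over all genes. All 24 genes of mitosis on the list fell, with a median log2 fold change of -1.41, which is larger in size than the -0.58 of the replication genes, a difference that was not tested. CDC20, the activator of the anaphase-promoting complex, changed most, by -1.98.

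Most members were also lower in the day 7 knockdown than in the control, a comparison that shares the day 7 libraries and is therefore no independent evidence. Of the 44 members 31 fell, against 15% of all genes tested, and 1 rose, against 20.6%. Without control replicate 3, 33 were called lower. The fall passed 2-fold for 8 members, against 5.68% of all genes, and for 5 with a pseudocount of 1. The median was -0.61, beside 0.10 over all genes. The 8 were TK1 (-1.80), TYMS (-1.38), GINS4 (-1.35), CHAF1B (-1.28), RRM1 (-1.25), UHRF1 (-1.19), RFC2 (-1.02) and POLA1 (-1.01). The member that rose was again RFC1 (log2 fold change 0.50, standard error 0.104, adjusted p = 0.00215), and it was not called in the fit of the 2 groups alone or without day 7 knockdown replicate 1 or 2 (18 of 21 settings called it). RPA2 (log2 fold change 0.23, standard error 0.0979, adjusted p = 0.0760) and POLA2 (log2 fold change 0.05, standard error 0.119, adjusted p = 0.779) were not called.

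The files give FPKM and no counts, so the depth behind each value is unknown and no counting interval can be given. For a single gene, the smallest two-sided p that an exact permutation test of 3 against 3 libraries allows is 0.1, and nothing in the labels says that replicates are separate cultures, so the p-values of limma measure the spread between these libraries.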

How the data were processed

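Total RNA was sequenced in 9 libraries of U251 cells. Per the labels the authors aligned reads with HISAT2 to GRCh38 and deposited a table of FPKM per gene, and the counting program and its settings are not given in the sources used here. Deposited coordinates of assembled loci were used to check overlaps with members. The members and all gene lists were chosen with earlier results of these data known.

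FPKM values were tested as log2(FPKM + 0.1) with limma 3.58.1 (R 4.3.3), with trend, all 9 libraries and 3 groups in one model, over the 15551 genes that averaged 0.1 FPKM or more, with Benjamini-Hochberg adjustment across all of them. Fold changes on this scale understate those of low genes. Calls used an FDR of 0.01 for comparisons with day 7 and 0.05 for day 3, all two-sided, and a further count required a fold above 2. Full statistics are given for the 10 members with the largest change between the sh-Ptbp1 groups, those against the majority direction, and the 3 with the lowest p at day 3, and other members and genes by role. Positions and overlaps are from GENCODE release 29, promoters from RefSeq (GRCh38.p14). Tested on simulated data for the day 7 knockdown against the day 3 knockdown with 200 of 15551 genes changed, the test recovered 63% of 2-fold changes and 15% of log2 changes of 0.5, and called 0 unchanged genes. For the day 3 knockdown against the control it recovered 87% and 36%, and called 5 unchanged genes. In the data, 2418 genes were called lower and 3152 higher in the day 7 knockdown against the day 3 knockdown. With that many calls the Benjamini-Hochberg cutoff is looser than in the simulation, so the simulated shares do not describe that comparison. In the day 3 knockdown against the control 5 genes were called, which makes the cutoff stricter than in the simulation. The shares of 87% and 36% therefore do not describe the day 3 comparison either. Changed genes in the simulation were drawn only from those averaging 1 FPKM or more. Alternatives covered pseudocount, filter, scaling, model, GC content and length, replicate block and leaving out each library. Figures were drawn with matplotlib 3.10.9. A gene of the list of other replication genes is counted there and not reported here by name.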

Additional observations from a re-analysis of the deposited data

How the results depend on the processing

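In the day 7 knockdown against the day 3 knockdown the members' median (-0.58) was -0.49 with TPM, -0.67 with median-ratio scaling and -0.70 with quantile normalization, while the median of all genes moved from 0.09 to 0.20, 0.01 and -0.0087, so that the members lay 0.60 to 0.73 below it in every setting. In the day 7 knockdown against the control the median was -0.54, -0.71 and -0.70 under these scalings. A pseudocount of 1 gave 5 members past 2-fold in each of these comparisons. Leaving out each library in turn gave 26 to 36 called members in the day 7 knockdown against the day 3 knockdown, 27 to 34 in the day 7 knockdown against the control, and 0 to 4 in the day 3 knockdown against the control, where the 4 came without control replicate 3. In the first of these the lowest count came without day 7 knockdown replicate 1 and the highest without control replicate 3. The sign turned for DTL with TPM (0.0074) and for POLA2 with median-ratio scaling (-0.0223) and quantile normalization (-0.0566) between day 3 and day 7. POLD3 kept its direction there in 19 of 21 settings, with a highest value of 0.0319. In the day 3 knockdown against the control, 24 of the 44 members kept their direction in every setting. Among the others POLA2 turned between the control and the day 3 knockdown with the GC and length correction (0.004) and without control replicate 1 (0.0989, the highest with a library left out, the lowest being -0.1103). The causes of these changes were not tested. Replicate numbers did not pair the libraries, since same-numbered libraries had correlations of -0.0317 to 0.0512, and with the replicate block 32, 0 and 32 members were called in the 3 comparisons, against 33, 0 and 32 without it. Depth is unknown, so no limit that it sets can be given.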
